A study of Mus musculus with 4 samples.

Results

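Nuclear receptors are transcription factors that bind DNA through a zinc finger domain, and many of them are switched by a small lipid-soluble ligand such as retinoic acid, thyroid hormone, a steroid or a fatty acid. Others have no known natural ligand. In the developing eye and forebrain they are best known for retinoic acid signalling, for the patterning roles of the COUP-TF pair and for the specification of photoreceptors. A list of 40 nuclear receptor genes was followed here by symbol through the differentiation of mouse embryonic stem cells towards retina. Of the 40 genes, 38 had a probe set whose annotation named 1 gene, and these 38 stand among 22180 genes measured in that way. Where a gene had several such probe sets, the one with the highest average across all 4 arrays was taken. Nr1h2 (an oxysterol receptor) and Nr2e3 (a photoreceptor-specific receptor) were not analysed here.

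The cells were wild type and came from a single line, a derivative of EB5 with the 129/Ola background that carries GFP in the Rx locus, under the promoter of this eye field gene (Rax in the annotation). They were grown as aggregates in retinal differentiation medium with matrigel, and total RNA was taken after 4 or 7 days, with 2 arrays per day. Time was the only difference between the groups, and both carried the GFP insertion and received the same medium. Nothing in the labels states that replicates came from different cultures. P-values here reflect the spread among these arrays alone, part or all of which could be technical, and having 4 arrays limits how precise any value is. The comparison asks which genes differ between day 7 and day 4 of differentiation.

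Values are log2 expression levels as deposited, so a difference of 1 is a 2-fold difference in normalised signal, and differences are day 7 minus day 4. Array medians lay between 5.68 and 5.77, and replicates correlated across genes at 0.986 (day 4) and 0.991 (day 7), against 0.972 to 0.978 between days. The labelled tissue was checked against its markers. The summed signal of 5 eye field genes was 417 and 777 at day 4 and 2590 and 3420 at day 7. Of these, named after their values were seen, 3 rose (Pax6, Lhx2 and Rax), and Six3 and Six6 were not called. At day 7 Lhx2 (mean 10.16) and Pax6 (9.93) were the highest of the 5, and Pax6 is also counted as a neural progenitor marker. The 5 photoreceptor markers summed to 153 to 177 on every array and none was called (0 at an unadjusted p under 0.05). Other cell types gave signal too. The sum of 8 mesenchyme and endothelium markers was 849 and 876 at day 4 and 1580 and 2130 at day 7. That of 6 pigment epithelium markers was 336, 295, 600 and 1950 in the same order of arrays. Single genes, named after their values were seen, weighed heavily in both sums. Pdgfra was the highest of the 8 on every array, at 9.63 and 10.09 at day 7. Pmel, which was not called, was the highest of the 6 on the second day 7 array, at 10.01. In bulk RNA, fewer cells of a type and less RNA per cell cannot be told apart.

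Between the days 8 of the 38 receptors changed. Nr2f2, Nr2f1, Nr4a2 and Rarb rose, and Pgr, Rarg, Nr6a1 and Nr1d2 fell. A gene was called where limma gave an adjusted p under 0.05 over all 22180 genes, and 10.5% of all genes were called, 6.15% as higher and 4.33% as lower at day 7. The receptors' share was 21.1%, with 4 called in each direction. With each array centred on its median the split became 7 higher and 4 lower, because Rxra, Pparg and Nr4a3 were then called too. The median difference of the 38 receptors was 0.04, beside 0.00 for all genes, and the median size of a difference was 0.24, beside 0.18. The 2 arrays of one day lay wholly above the 2 of the other in 26 of 38 receptors (68.4%), and in 50.8% of all genes. Only 2 of the 38 receptors lay below the 25th percentile of gene level, against 5545 of all 22180 genes. These shares were not matched for level, so they do not show that receptors changed more often than genes of similar level.

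**Figure D1:**
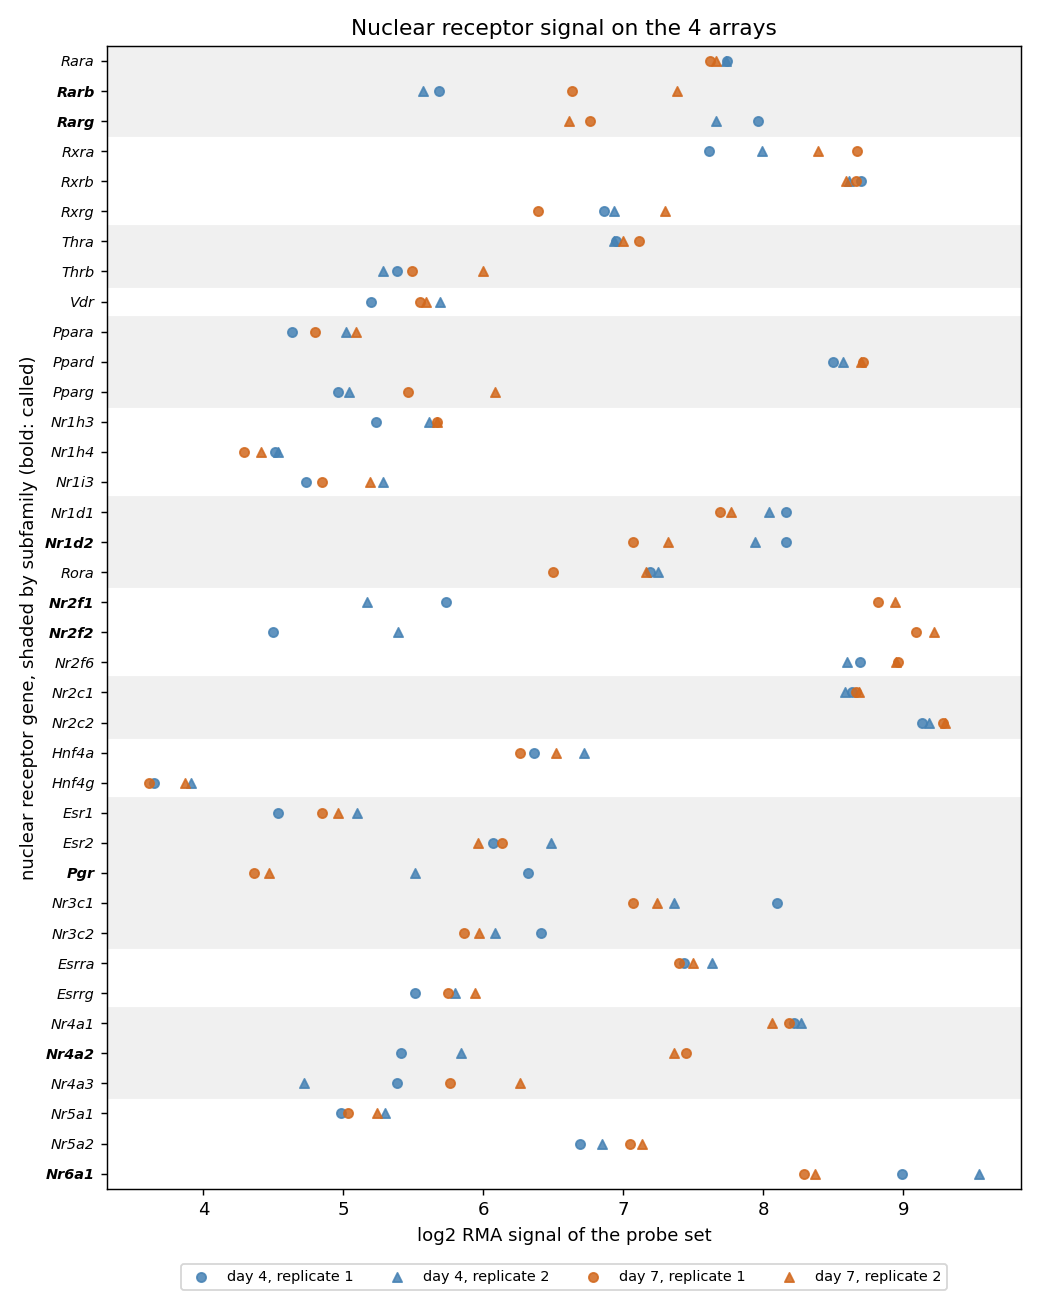
Log2 expression of the nuclear receptors on each of the 4 arrays, with day 4 and day 7 replicates as separate points and receptors grouped by subfamily (bold: called). Nr2f2 moved from 4.50 and 5.39 at day 4 to 9.09 and 9.22 at day 7, whereas Rara stayed between 7.62 and 7.74.

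**Figure D2:**
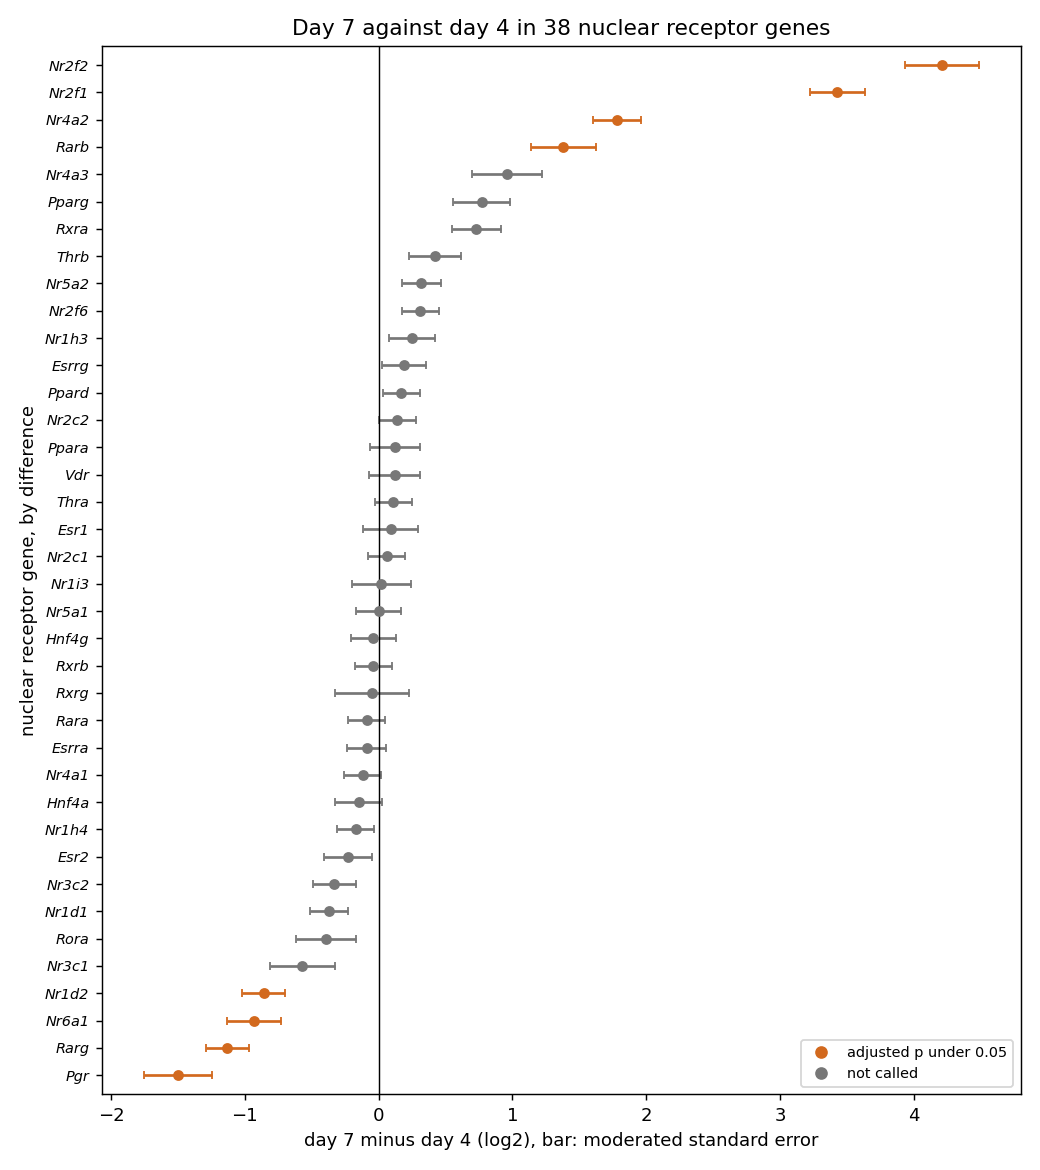
Day 7 minus day 4 difference (log2) of each of the 38 receptors, with bars for limma's moderated standard error and called receptors in orange. The 4 called rises run from 1.38 (Rarb) to 4.21 (Nr2f2) and the 4 called falls from -0.86 (Nr1d2) to -1.50 (Pgr).

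The COUP transcription factors had the largest rises among the 38 listed receptors. These orphan receptors bind repeats of the AGGTCA core, mostly as repressors, and in the mouse Nr2f1 and Nr2f2 pattern the optic vesicle and the forebrain. Nr2f2 (probe set 17492066) read 4.50 and 5.39 at day 4 and 9.09 and 9.22 at day 7. Nr2f1 (17294547) read 5.73 and 5.17 at day 4 and 8.82 and 8.94 at day 7. In both genes the day 7 arrays lay far above the day 4 arrays and close to each other, and the day 4 arrays differed more. The difference was 4.21 for Nr2f2 (SE 0.276, 18.5-fold, limma adjusted p = 0.000282) and 3.43 for Nr2f1 (SE 0.204, 10.7-fold, adjusted p = 0.000189). The third member, Nr2f6, which is broadly expressed, read 8.69 and 8.60 at day 4 and 8.96 and 8.95 at day 7 and was not called (0.31, adjusted p = 0.237). The rises of Nr2f1 and Nr2f2 were called in all 11 alternative treatments of the data, with adjusted p-values up to 0.00377 and 0.00484. Neural progenitor markers moved in the same direction, with 4 of 5 called higher. Their summed signal was 3270 and 3560 at day 4 and 6880 and 6340 at day 7. Sox2, named after its values were seen, weighed most in this sum on every array and was not called (0.22, adjusted p = 0.443). It read 11.33 and 11.43 at day 4 and 11.58 and 11.61 at day 7, and it is also on the list of pluripotency genes below. The mesenchyme and endothelium markers, whose sums are given above, had 3 of 8 called higher (Kdr, Twist1 and Pdgfra, named after their values were seen), and the part of either cell type in the COUP-TF rises was not tested.

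The stretches of 150 bases before the annotated starts of these genes are shown because these genes had the largest rises among the listed receptors. They come from RefSeq on GRCm38.p6, at chr13:78198874-78199023 (minus strand) and chr7:70366747-70366896 (minus strand), and run 5′ to 3′ towards the start. Capitals would mark AGGTCA on either strand, and neither stretch has a match.
Nr2f1: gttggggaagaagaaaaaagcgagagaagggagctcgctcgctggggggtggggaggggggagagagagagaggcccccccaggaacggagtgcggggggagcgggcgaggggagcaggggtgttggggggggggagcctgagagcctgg
Nr2f2: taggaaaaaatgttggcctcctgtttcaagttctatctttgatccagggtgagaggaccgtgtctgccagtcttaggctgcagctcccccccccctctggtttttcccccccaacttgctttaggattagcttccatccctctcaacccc
The G-rich stretch of Nr2f1 has a GC content of 70.0%, and that of Nr2f2 52.7%. The AGGTCA core itself was found in 16.3% of all 32851 promoter windows of 300 bases and in 11 of the 55 windows of the listed receptors, which belong to 10 genes. The absence of these letters says only that they are not in this window.

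The retinoic acid receptors moved apart from each other. They bind retinoic acid and act as heterodimers with the retinoid X receptors, and Rarb is a textbook example of a gene that retinoic acid itself induces. Rarb (17303609) read 5.68 and 5.57 at day 4 and 6.63 and 7.38 at day 7. Both day 7 arrays were above both day 4 arrays, and the second day 7 array was the higher by 0.75. Rarb rose by 1.38 (SE 0.243, 2.61-fold, limma adjusted p = 0.0130). Rarg (17322181), which is abundant in early embryonic cells, read 7.96 and 7.66 at day 4 and 6.76 and 6.61 at day 7. It fell by 1.13 (SE 0.162, 2.19-fold, adjusted p = 0.00587), with no overlap between days. Rara, the widely expressed form, read 7.74, 7.73, 7.62 and 7.66 in the same order and was not called (-0.09, adjusted p = 0.785). Without the second day 7 array the difference was 1.01 for Rarb (adjusted p = 0.0504) and -1.05 for Rarg (adjusted p = 0.0604), so that both missed the threshold while keeping their direction.

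Rarb and Cyp26a1, which encodes the enzyme that degrades retinoic acid, both carry a retinoic acid response element close to their starts, and they are shown together for this shared element. Both stretches hold the 250 bases before the start (RefSeq, GRCm38.p6), Rarb at chr14:16575477-16575726 (minus strand) and Cyp26a1 at chr19:37697558-37697807 (plus strand). Capitals mark a match to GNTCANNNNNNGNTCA on either strand, a direct repeat of the receptor core with 5 bases between its copies.
Rarb: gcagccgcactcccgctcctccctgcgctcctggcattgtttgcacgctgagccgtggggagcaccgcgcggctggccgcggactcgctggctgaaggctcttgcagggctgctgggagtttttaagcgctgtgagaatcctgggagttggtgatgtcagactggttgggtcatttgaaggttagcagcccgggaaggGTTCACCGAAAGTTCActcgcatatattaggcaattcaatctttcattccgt
Cyp26a1: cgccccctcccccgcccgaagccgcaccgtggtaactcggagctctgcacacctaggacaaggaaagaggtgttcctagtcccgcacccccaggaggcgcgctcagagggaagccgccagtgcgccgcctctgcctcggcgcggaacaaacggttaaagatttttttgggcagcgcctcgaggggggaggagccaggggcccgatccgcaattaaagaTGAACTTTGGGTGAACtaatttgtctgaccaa
In Rarb the repeat reads GGTTCA, then the spacer CCGAA, then AGTTCA, and in Cyp26a1 the match lies on the opposite strand. This pattern was found in 0.861% of all windows and in 1 of the 55 receptor windows, that of Rarb. A match is a description of the letters and does not show binding. Rarb rose as given above, whereas Cyp26a1, named here for this comparison after its values were seen, read 7.75 and 7.77 at day 4 and 7.11 and 7.82 at day 7 and was not called (-0.29, adjusted p = 0.561).

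Of 14 genes of retinoic acid supply, breakdown and response, 6 were called higher (42.9%, beside 10.5% of all genes), 0 lower and 8 not at all. The median difference over the 14 was 0.63. The 6 were genes of supply, binding and response, and none of the Cyp26 enzymes that break retinoic acid down was among them. Other genes of supply and response, named after their values were seen, were not called by limma. They included Aldh1a1 (0.24, adjusted p = 0.643), Aldh1a2 (0.06, adjusted p = 0.886), Hoxb1 (0.78, adjusted p = 0.0514) and Tgm2 (0.49, adjusted p = 0.301). Crabp1, a cytoplasmic retinoic acid binding protein, read 9.41 and 9.07 at day 4 and 11.82 and 12.02 at day 7 (2.68, SE 0.172, limma adjusted p = 0.000257). Aldh1a3, which makes retinoic acid in the eye, read 4.80 and 5.44 at day 4 and 6.60 and 8.26 at day 7 (2.31, SE 0.492, adjusted p = 0.0269). Its day 7 arrays were 1.65 apart, and the call was lost without the first day 4 array or the second day 7 array (highest adjusted p = 0.0756). It moved from 4.95-fold to 2.79-fold without the second day 7 array and to 8.82-fold without the first. The other called genes, outside the naming rule and named after their values were seen, were Stra6, the cellular retinol importer (1.96), Crabp2, a second binding protein (1.43), Stra8, a retinoic acid responsive germ cell gene (1.34), and Rdh10, which oxidises retinol (0.89). Stra6 kept its call, but its day 7 arrays were 1.23 apart, and its 3.88-fold rise became 2.53-fold without the second of them and 5.94-fold without the first. Calls of Crabp2 (0.0609), Stra8 (0.0584) and Rdh10 (0.131) were lost in at least 1 fit without a day 7 array, with the highest adjusted p given in brackets. Of the pigment epithelium markers, whose sum was highest on that second day 7 array, 2 of 6 were called higher, and their part in the retinoic acid values was not tested.

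None of the retinoid X receptors, the shared partners of many heterodimers, was called by limma (0 of 3, 1 at an unadjusted p under 0.05). Rxra read 7.61 and 7.99 at day 4 and 8.67 and 8.39 at day 7, a difference of 0.73 (SE 0.185, adjusted p = 0.0514). Its days did not overlap, and it was called in 6 of 11 alternatives, with adjusted p-values from 0.0188 to 0.308. Rxrb read 8.70, 8.61, 8.66 and 8.59 (adjusted p = 0.935). Rxrg, which marks cone photoreceptors in the mature retina, read 6.86 and 6.93 at day 4 and 6.39 and 7.30 at day 7, so that its day 7 arrays lay on either side of both day 4 arrays (-0.05, adjusted p = 0.956).

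Of the NR4A receptors, orphan receptors encoded by immediate early genes, Nr4a2 rose. Nr4a2 (17385374), also called Nurr1 and needed for midbrain dopamine neurons, read 5.41 and 5.84 at day 4 and 7.45 and 7.36 at day 7. The days were well separated, and the difference was 1.78 (SE 0.180, 3.43-fold, limma adjusted p = 0.00142), called in all 11 alternatives. The 6 neuron markers summed to 2040 and 1880 at day 4 and to 1770 on both day 7 arrays, with 2 called higher and 1 lower. The called markers, named after their values were seen, were Dcx (1.69), Elavl4 (1.52) and Stmn2 (-0.97). Stmn2 had the highest mean level of the 6 and weighs most in the sum, whereas 4 of the 6 differences were positive. Nr4a3 read 5.38 and 4.72 at day 4 and 5.76 and 6.26 at day 7 (0.96, SE 0.260, adjusted p = 0.0643), and was called in 3 of 10 alternatives with adjusted p-values from 0.0158 to 0.336. Nr4a1 read 8.22, 8.27, 8.18 and 8.06 and was not called (-0.12, adjusted p = 0.704). The other immediate early genes had 1 of 11 called higher (9.09%, beside 10.5% of all genes) and 0 lower, with a median of 0.10. The called gene was Jun, an AP-1 subunit, which read 8.28 and 8.26 at day 4 and 9.35 and 9.25 at day 7 (1.03, adjusted p = 0.00445, or 0.0562 without the first day 7 array). Fos (-0.35, adjusted p = 0.368) and Egr1 (0.42, adjusted p = 0.177), named after their values were seen, were not called.

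The NR4A promoters are shown because the 3 genes share a dense run of the same short motif while Nr4a2 alone was called. Each stretch holds the 250 bases before the start (RefSeq, GRCm38.p6): Nr4a1 at chr15:101266596-101266845 (plus strand), Nr4a2 at chr2:57124004-57124253 (minus strand) and Nr4a3 at chr4:48045055-48045304 (plus strand). Capitals mark TGACG on either strand, the core that cAMP-responsive factors bind.
Nr4a1: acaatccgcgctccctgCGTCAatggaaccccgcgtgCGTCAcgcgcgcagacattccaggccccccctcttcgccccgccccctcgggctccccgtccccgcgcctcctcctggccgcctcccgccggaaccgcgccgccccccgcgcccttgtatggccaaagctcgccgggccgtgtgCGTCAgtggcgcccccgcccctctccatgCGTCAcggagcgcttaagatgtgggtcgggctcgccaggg
Nr4a2: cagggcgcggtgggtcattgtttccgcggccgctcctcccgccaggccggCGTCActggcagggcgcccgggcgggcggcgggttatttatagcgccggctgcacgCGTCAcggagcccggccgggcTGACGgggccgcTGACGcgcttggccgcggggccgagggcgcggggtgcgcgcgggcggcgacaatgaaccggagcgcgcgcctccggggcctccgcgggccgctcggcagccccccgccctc
Nr4a3: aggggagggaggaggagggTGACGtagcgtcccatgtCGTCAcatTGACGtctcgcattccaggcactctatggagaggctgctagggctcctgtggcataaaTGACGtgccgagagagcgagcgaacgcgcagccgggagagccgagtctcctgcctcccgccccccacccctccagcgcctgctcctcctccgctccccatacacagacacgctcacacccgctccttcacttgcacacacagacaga
TGACG was present in 20.8% of all windows, and 4 or more matches in 76 of 32851 (0.231%). Each of the 3 NR4A genes had 4 matches. The GC content of the stretches was 74.4% for Nr4a1, 80% for Nr4a2 and 63.6% for Nr4a3. The median over all windows was 52.7%, and the share of windows with 4 or more matches was not matched for GC content. The differences between the 3 genes' responses were not tested.

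The REV-ERB and ROR receptors compete for the same sites in the circadian clock, REV-ERBs as haem-binding repressors and RORs as activators. Nr1d2 (REV-ERB beta, 17303625) read 8.16 and 7.94 at day 4 and 7.07 and 7.32 at day 7. Both day 7 arrays were lower than both day 4 arrays, by 0.86 on average (SE 0.162, 1.81-fold, limma adjusted p = 0.0172). The call was lost without the first day 4 array (adjusted p = 0.0518), the first day 7 array (0.151) or the second day 7 array (0.0630). Nr1d1 (REV-ERB alpha) read 8.16 and 8.04 at day 4 and 7.69 and 7.77 at day 7 and was not called (-0.37, adjusted p = 0.171). Rora read 7.19 and 7.25 at day 4 and 6.50 and 7.16 at day 7, and was not called either (-0.39, adjusted p = 0.380).

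Among their clock partners 1 of 14 was called higher and 3 lower (28.6%, beside 10.5% of all genes), with a median difference of -0.19. Bhlhe41, a repressor of the clock activators, fell by 1.47, from 6.96 and 7.07 at day 4 to 5.54 on both day 7 arrays (adjusted p = 0.00109). Ciart, another repressor, read 9.16 and 9.21 at day 4 and 7.40 and 8.07 at day 7 and fell by 1.45 (adjusted p = 0.00785). Per3, named after its values were seen, fell by 0.69 (adjusted p = 0.0265), and Clock, the positive arm's acetyltransferase, rose by 0.61 (adjusted p = 0.0365). Of these 4, Clock lost its call without any 1 of the 4 arrays, with adjusted p-values up to 0.210, and Per3 without the first day 4 array or either day 7 array, up to 0.213. The clock's E-box, CACGTG on both strands, was present in 7.15% of all windows but not in that of Nr1d2. Of the 4 called partners, Bhlhe41 and Ciart had it in their windows and Per3 and Clock did not. The AGGTCA core was present in the Nr1d2 window, 77 bases before the start, and in 16.3% of all windows. These matches describe the letters and do not show binding.

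Among the steroid hormone receptors, ligand-activated factors released from heat shock protein complexes, 1 of 5 changed (20%, beside 10.5% of all genes). The progesterone receptor gene Pgr (17514637) read 6.32 and 5.51 at day 4 and 4.36 and 4.47 at day 7. It fell by 1.50 (SE 0.255, 2.83-fold, limma adjusted p = 0.0113), and the day 4 arrays were further apart than the day 7 arrays. The day 7 mean of 4.41 lay under 4.60, the 25th percentile of gene levels on this array, where remaining background makes folds smaller. Without the first or the second day 7 array its adjusted p was 0.0880 or 0.0674. The glucocorticoid receptor Nr3c1 read 8.10 and 7.36 at day 4 and 7.07 and 7.24 at day 7 (-0.57, adjusted p = 0.219), and it was called without the second day 4 array, which was the lower of that day (adjusted p = 0.0145).

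The mineralocorticoid receptor Nr3c2 read 6.41, 6.08, 5.86 and 5.97 (-0.33, adjusted p = 0.295). A second probe set of it (17510628) read 3.52, 3.67, 3.66 and 3.67, a difference of the opposite sign (0.07). The estrogen receptors were not called: Esr1 read 4.53, 5.10, 4.85 and 4.96 (adjusted p = 0.874), and Esr2 6.07, 6.48, 6.13 and 5.96 (adjusted p = 0.560). In all of these 3 genes the replicates of day 4 were at least 0.33 apart. The chaperones and glucocorticoid target genes had a median of -0.12. Of these 9 genes, 1 was called higher (11.1%, beside 10.5% of all genes) and 0 lower. This was Zbtb16, a zinc finger repressor that glucocorticoids induce, which read 6.63 and 7.39 at day 4 and 9.73 and 9.61 at day 7 (2.66, 6.31-fold, adjusted p = 0.00103). The 4 steroidogenic markers summed to 135 to 152 on every array, and 0 were called by limma (0 at an unadjusted p under 0.05).

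Nr6a1 fell, as did 4 of 10 pluripotency genes. Nr6a1 (germ cell nuclear factor, 17384717) is an orphan repressor known for silencing Pou5f1 as embryonic cells leave pluripotency. It read 8.99 and 9.54 at day 4 and 8.29 and 8.37 at day 7. Each day 7 array was below each day 4 array, and Nr6a1 fell by 0.93 (SE 0.200, 1.91-fold, limma adjusted p = 0.0276), a call lost without the first (0.173) or second (0.130) day 7 array. Nr5a2, an activator of Pou5f1 that binds as a monomer, read 6.69 and 6.85 at day 4 and 7.05 and 7.13 at day 7 and was not called (0.32, adjusted p = 0.241). Nr5a1, the steroidogenic factor of gonad and adrenal, read 4.98, 5.30, 5.03 and 5.24 (0.00, adjusted p = 0.999), with full overlap of the days.

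Of 10 pluripotency genes known as targets of these receptors or of Esrrb, 4 were called lower and 0 higher (40%, beside 10.5% of all genes). Their median was -0.32. Tdgf1, a Nodal co-receptor, fell by 1.87 (adjusted p = 0.00119), and Pou5f1 fell by 1.80 (adjusted p = 0.00297), from 8.37 and 7.75 to 6.16 and 6.37. The other called genes, outside the naming rule, were Gdf3 (-1.03) and Lin28a (-1.02), and Nanog at -0.56 was not called (adjusted p = 0.0531). Calls of Gdf3 (0.161) and Lin28a (0.0699) were lost without the first day 7 array, and that of Gdf3 also without the second, with the highest adjusted p in brackets. The summed signal of 6 pluripotent cell markers was 10600 and 9450 at day 4 and 2940 and 3270 at day 7, with 4 of 6 called lower, and their part in the fall of Nr6a1 was not tested. The estrogen-related receptors, orphan regulators of mitochondrial metabolism, were not called: Esrra read 7.43, 7.63, 7.40 and 7.50 (adjusted p = 0.822), and Esrrg 5.51, 5.80, 5.75 and 5.94 (adjusted p = 0.597).

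The receptors for thyroid hormone, vitamin D, fatty acids, oxysterols, bile acids and xenobiotics gave no call. In the thyroid pair, Thra read 6.95, 6.93, 7.11 and 7.00 (0.11, adjusted p = 0.734), and Thrb, which directs cone opsin choice in the retina, read 5.38 and 5.28 at day 4 and 5.49 and 6.00 at day 7 (0.42, adjusted p = 0.258). Limma called 0 of the 2, with 0 at an unadjusted p under 0.05. Of 9 genes of thyroid hormone transport, conversion and response, 1 was called lower and 0 higher (median -0.23). That is 11.1%, beside 10.5% of all genes. The called gene was Klf9, a zinc finger gene induced by thyroid hormone and glucocorticoids. It read 9.86 and 10.04 at day 4 and 8.66 and 8.93 at day 7. Klf9 fell by 1.16 (2.23-fold, adjusted p = 0.00517, or 0.0572 without the first day 7 array). Vdr, the vitamin D receptor, read 5.20, 5.69, 5.55 and 5.59 (adjusted p = 0.792), with both day 7 arrays inside the day 4 range.

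Of the peroxisome proliferator-activated receptors, sensors of fatty acids, limma called 0 of 3, with 1 at an unadjusted p under 0.05. Pparg, the adipogenic form, read 4.96 and 5.04 at day 4 and 5.46 and 6.08 at day 7 (0.77, SE 0.213, adjusted p = 0.0683). Its days did not overlap, and it was called in 4 of 10 alternatives with adjusted p-values from 0.0378 to 0.336. Ppard, the ubiquitous form, read 8.50, 8.57, 8.71 and 8.70 (0.17, adjusted p = 0.580), and Ppara, which drives fatty acid oxidation in liver, 4.63, 5.02, 4.80 and 5.09 (0.12, adjusted p = 0.800). None of 7 PPAR target genes was called (0 by limma, 3 at an unadjusted p under 0.05, median -0.27). The largest difference among them was that of Pdk4, a brake on glucose oxidation (-0.60, adjusted p = 0.0745).

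Nr1h3 (LXR alpha, the oxysterol receptor) read 5.23, 5.61, 5.67 and 5.67 (0.25, adjusted p = 0.463). Nr1h4 (FXR, the bile acid receptor) read 4.51, 4.53, 4.29 and 4.41 (-0.17, adjusted p = 0.580), and Nr1i3 (CAR, a xenobiotic receptor) 4.73, 5.28, 4.85 and 5.19 (0.02, adjusted p = 0.985). Limma called 0 of these 3 genes, with 0 at an unadjusted p under 0.05. Of 7 oxysterol receptor targets (median -0.13) 1 was called lower (14.3%, beside 10.5% of all genes) and 0 higher. This was Abcg1, a sterol exporter, which read 8.51 and 8.36 at day 4 and 6.12 and 6.89 at day 7 and fell by 1.93 (3.82-fold, adjusted p = 0.00369). Abca1, the other sterol exporter of the list and named after its values were seen, was not called (0.72, adjusted p = 0.0711).

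The liver-type receptors and the testicular receptors were not called. Hnf4a, a regulator of liver and visceral endoderm, read 6.36, 6.72, 6.26 and 6.52 (-0.15, adjusted p = 0.730), and Hnf4g 3.65, 3.91, 3.61 and 3.87 (-0.04, adjusted p = 0.935). In both the second replicate of each day was the higher. The endoderm and visceral endoderm markers summed to 4410 and 3680 at day 4 and 2320 and 3980 at day 7, and all 11 of them were higher on the second day 7 array than on the first. Nr2c1 and Nr2c2, orphan receptors that silence embryonic globin genes, read 8.63, 8.58, 8.66 and 8.68 (adjusted p = 0.868) and 9.13, 9.18, 9.28 and 9.30 (adjusted p = 0.649). Limma called 0 of these 4 genes, with 0 of 2 at an unadjusted p under 0.05 in either pair.

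Of 6 nuclear receptors outside the list of 40, 2 rose and 1 fell (50% called, beside 10.5% of all genes, median -0.06). Nr2e1, the orphan repressor of neural stem cells, had a difference of 3.55 (adjusted p = 0.000579). Rorb, a retinoid-related orphan receptor needed for rod and amacrine development, read 4.42 and 4.86 at day 4 and 5.93 and 6.64 at day 7 and rose by 1.64 (SE 0.261, 3.13-fold, limma adjusted p = 0.00869). Its listed relative Rora was not called, and the difference between the pair was not tested. Nr0b1 (Dax1), which lacks the DNA-binding domain and is abundant in embryonic stem cells, read 8.98 and 8.38 at day 4 and 7.60 and 7.40 at day 7 and fell by 1.18 (adjusted p = 0.0150). Its call was lost without the first (0.0757) or second (0.111) day 7 array. Esrrb, an orphan receptor of naive pluripotency named after its values were seen, was not called (-0.22, adjusted p = 0.448).

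Receptors act through coactivators, which acetylate or methylate chromatin, and corepressors, which recruit deacetylases. Of 14 coactivators 3 were called higher and 0 lower (21.4%, beside 10.5% of all genes), with a median of 0.01. Ppargc1a, the cold- and exercise-induced partner of the PPARs, rose by 1.04 (adjusted p = 0.0228), from 3.61 and 3.77 to 4.43 and 5.03. Its mean level of 4.21 lay under 4.60, the 25th percentile of gene levels, and so near background. Ncoa6, a scaffold of histone methyltransferase complexes, rose by 0.93 (adjusted p = 0.00671), and Ncoa1 (0.63, adjusted p = 0.0499), outside the naming rule, lost its call in 4 of 11 alternatives, with adjusted p-values up to 0.246. Of 11 corepressors 2 were called higher and 0 lower (18.2%, beside 10.5% of all genes), with a median of 0.17. Nrip1, which ligand-bound receptors recruit, read 7.24 and 7.32 at day 4 and 9.14 and 9.60 at day 7 and rose by 2.09 (SE 0.184, 4.25-fold, limma adjusted p = 0.000869). Lcor, a ligand-dependent corepressor, rose by 0.77 (adjusted p = 0.0165). Without 1 of the arrays Ppargc1a, Ncoa6 and Lcor each lost the call, with adjusted p-values up to 0.124, 0.0678 and 0.137, whereas Nrip1 was called in all 11 alternatives.

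**Figure D3:**
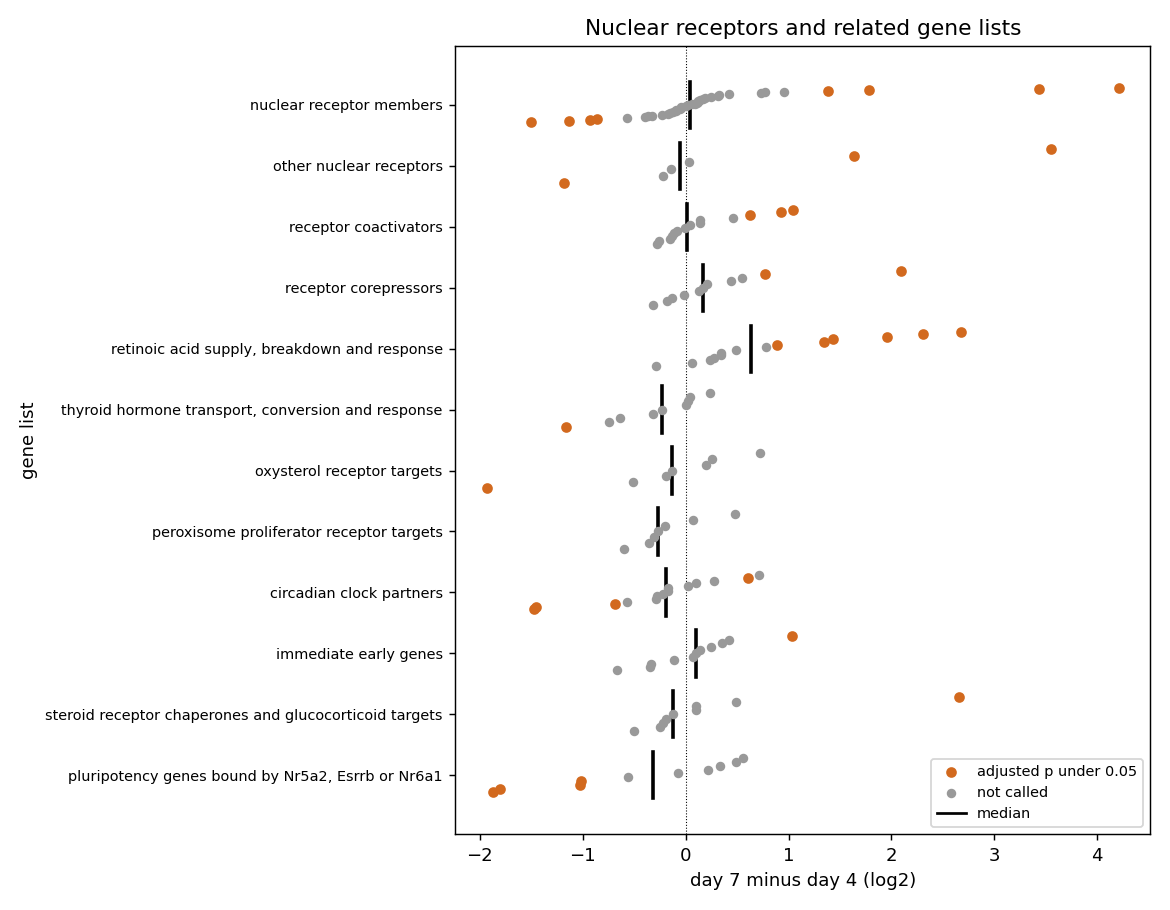
Day 7 minus day 4 differences (log2) of the genes in each list related to the receptors, 1 point per gene, with called genes in orange and the median of each list as a line. The retinoic acid list has the highest median (0.63), with 6 of 14 genes called higher, and the pluripotency list the lowest (-0.32), with 4 of 10 called lower.

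The 8 calls were not equally firm. Nr2f1, Nr2f2 and Nr4a2 were called in every one of the 11 alternatives, with adjusted p-values of Nr4a2 up to 0.0192. Rarb, Rarg, Nr1d2, Pgr and Nr6a1 each lost the call when at least 1 array was left out, as given with each gene. With the second day 7 array left out, limma called 994 of all genes in place of 2324, and 3 of the 38 receptors, all higher; 0 were called lower, with 6 of the lower ones at an unadjusted p under 0.05. The differences of the 4 falls were of similar size in that fit, at -1.56 for Pgr, -1.05 for Rarg, -0.98 for Nr1d2 and -0.97 for Nr6a1. That array differed from the first day 7 array in many receptors: it was the higher in 29 of 38, by a median of 0.11, whereas over all genes it was the higher in 10501 of 22180, with a median of -0.01. The largest such gaps between the day 7 arrays were those of Rxrg (0.91), Rarb (0.75), Rora (0.67) and Pparg (0.61), in which the second array was always the higher. Markers of several cell types were also higher on it: 5 of 6 of pigment epithelium, 11 of 11 of endoderm, 7 of 8 of mesenchyme and endothelium, and 4 of 5 of the eye field. On the other lists that array was higher for 5 of 6 pluripotent, 3 of 4 steroidogenic and 3 of 5 photoreceptor markers. For neuron markers this held in 3 of 6, and for neural progenitor markers in 2 of 5. The part of these cell types in these receptor values was not tested.

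**Figure D4:**
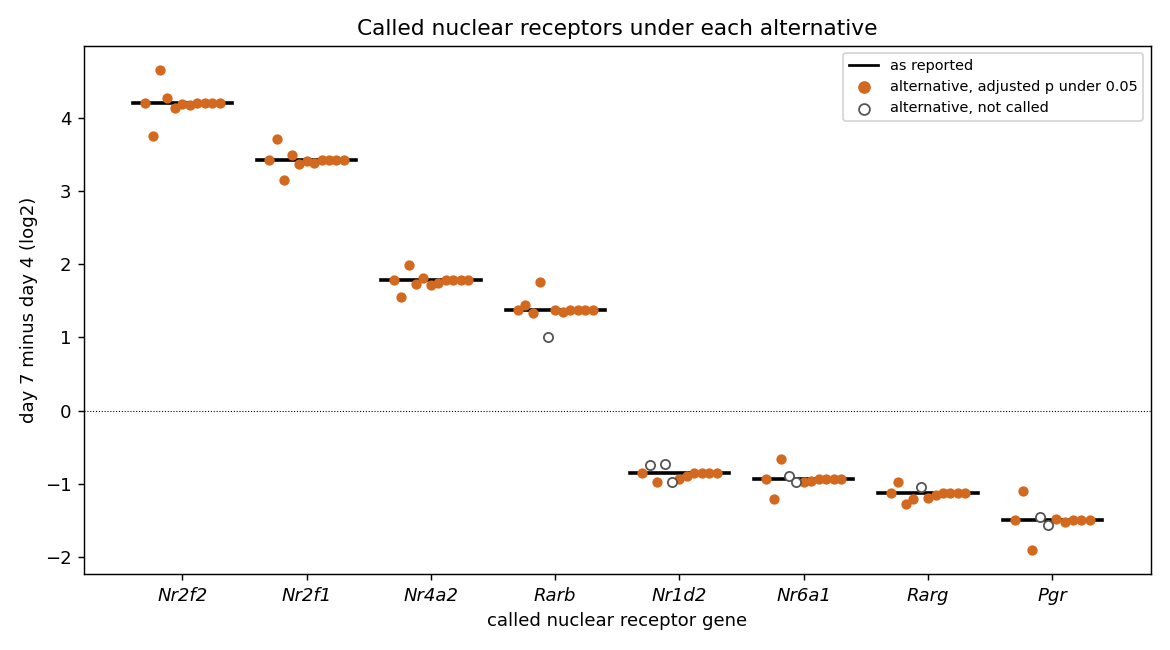
Day 7 minus day 4 difference (log2) of the 8 called receptors as reported (line) and under each alternative (1 point each, filled where called and open where not). Every point of Nr2f2, Nr2f1 and Nr4a2 is filled, and the open points of the other 5 receptors come from fits without 1 array, such as Rarb at 1.01.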

How the data were processed

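Total RNA from 4 aggregate samples, 2 per day, was copied into sense-strand cDNA and hybridised to 1 array each, per the labels' protocols. The deposited values are log2 signals of probe sets that the authors computed by RMA with Partek 6.5 (submitters' processing notes). A genome build was not given in the sources used here. RMA makes the arrays' distributions nearly equal, which hides any shift common to most genes. The platform annotation assigned 1 gene to 23521 of the 41345 probe sets and several to 1814. The highest mean over the arrays chose 1 probe set per gene (22180 genes); Ppard and Nr3c2 also appear on a probe set naming several genes, which was not used.

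Days were compared with limma 3.58.1 (lmFit, eBayes, no trend) in R 4.3.3, two-sided, with Benjamini-Hochberg adjustment over all genes, 2 residual degrees of freedom and a variance prior with 5.07 degrees of freedom and an SD of 0.16. SE is limma's moderated standard error. All adjusted p-values are limma's. The fit was tested on simulated data. Every receptor is reported. From each related list the rule named at most the 2 called genes that rose most and the 2 that fell most, or, where none was called, the gene with the largest difference; others are marked in the text. The members and lists were chosen with earlier results of these data known. Marker sums are sums of linear signal. Alternatives were a replicate block, leaving out each array, quantile normalisation, median centring, a robust intensity trend, filters on level, the mean of probe sets and other p limits. A single gene had 11 alternatives, or fewer where a filter on level removed it, and the other p limits apply to counts only. Promoter windows (250 bases before to 50 after a start, 27025 genes, 36 of the 40 receptors with 55 windows) came from RefSeq, GRCm38.p6.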

Additional observations from a re-analysis of the deposited data

How the results depend on the processing

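Leaving out each array in turn gave 887 to 2500 called genes, 3 to 10 called receptors and 0 to 5 called lower receptors, against 2324, 8 and 4. With the adjusted p limit at 0.01 the counts were 1078, 4 and 1. Higher receptors numbered 7, against 4, after median centring, with the robust trend and with the limit at 0.1. With the replicate number as a block, limma called 2770 genes and 9 receptors, Pparg being the addition (adjusted p = 0.0378). The labels give the days the same replicate numbers, and deviations of same-numbered arrays correlated at 0.186 across genes; with 2 pairs this does not show that they are paired.

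All reversals were of uncalled genes. Leaving out 1 array gave ranges of -0.08 to 0.01 for Rxrb, -0.50 to 0.40 for Rxrg, -0.12 to 0.37 for Vdr, -0.08 to 0.31 for Ppara, -0.26 to 0.29 for Nr1i3, -0.32 to 0.03 for Hnf4a, -0.17 to 0.09 for Hnf4g, -0.20 to 0.38 for Esr1, -0.18 to 0.01 for Esrra, -0.16 to 0.16 for Nr5a1 and -0.65 to 0.06 for Cyp26a1. Median centring gave -0.02 for Nr1i3 and quantile normalisation 0.01 for Nr5a1. The cause was not tested. Against the main setting, 361 of the single-receptor values kept direction and side of the threshold, 14 gained the call, 9 lost it and 17 reversed. Leaving out an array leaves 1 sample for its day, which is then assumed to vary like the other day. Median centring moved the median of all genes to -0.04 and quantile normalisation to -0.01. Receptors of low level, Hnf4g and Nr1h4 among them, lie near background, where differences are understated.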

Other observations

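The genes next to the called receptors on the chromosome, by the order of measured genes in the RefSeq table, were read as a description. Of 16 such neighbours of the 8 called receptors 5 were called, 4 in the receptor's direction. Of 60 neighbours of the receptors not called, 14 were called, beside 10.5% of all genes. They include the called receptors Rarb and Nr1d2, neighbours of Thrb, and Nr6a1, a neighbour of Nr5a1. Called neighbours were thus found beside both kinds of receptor. Long non-coding RNAs overlap both COUP-TF genes. A830082K12Rik, at Nr2f1, read 5.51 and 5.19 at day 4 and 7.97 and 8.04 at day 7 (2.66, 6.30-fold, limma adjusted p = 2e-04). B130024G19Rik, at Nr2f2, read 5.20 and 5.63 at day 4 and 6.85 and 7.00 at day 7 (1.51, 2.85-fold, adjusted p = 0.00272). Both RNAs rose with their receptor gene, and the labelled cDNA was sense-strand, per the labels' protocols; whether probes of overlapping genes share signal was not tested.

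Top2b, a topoisomerase gene beside Rarb, rose by 0.95 (8.75 on both day 4 arrays, 9.72 and 9.67 at day 7, adjusted p = 0.00585). Gm9918, a long non-coding RNA beside Rarg, fell by 0.97 (5.52, 5.49, 4.37 and 4.72, adjusted p = 0.0114). Kcnj3, a potassium channel gene near Nr4a2, went the other way and fell by 2.74 (9.62 and 9.18 at day 4, 6.68 and 6.63 at day 7, adjusted p = 0.000282). These neighbours were named after their values were seen. Among measured genes, Thrb lies between Rarb, which rose, and Nr1d2, which fell, and was itself not called. Nr5a1, a measured neighbour of Nr6a1, did not move with it: its difference was 0.00 (adjusted p = 0.999). The measured neighbour on the other side, the microRNA gene Mir181a-2, overlaps Nr6a1 and was not called (0.51, adjusted p = 0.125).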
